A study of Mus musculus with 30 samples.

Results

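The transmitter that a spinal interneuron releases can be read from a small set of genes, and 8 of these were taken as members by gene name: the vesicular glutamate transporters Slc17a6, Slc17a7 and Slc17a8, the glutamate decarboxylases Gad1 and Gad2, the vesicular inhibitory amino acid transporter Slc32a1, the glycine transporter Slc6a5 and the potassium-chloride cotransporter Slc12a5. Of these, 7 had a row among the 16995 genes of the expression table, and Slc17a7 was not analysed here.

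Glutamatergic interneurons load vesicles through one of the vesicular glutamate transporters, which makes these transporters the usual label of excitatory cells. GABA is made from glutamate by the decarboxylases GAD67 (Gad1) and GAD65 (Gad2), glycine is concentrated in terminals by GlyT2 (Slc6a5), and both inhibitory transmitters share the vesicular carrier VGAT (Slc32a1). Whether their receptors hyperpolarize a mature neuron depends on low intracellular chloride, which the neuronal exporter KCC2 (Slc12a5) maintains.

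RNA was sequenced from the intermediate laminae of the cervical cord at C5/C6, on the side that had lost its corticospinal input, in adult female C57BL/6 mice aged 2 to 3 months. Animals received a unilateral photothrombotic stroke of the sensorimotor cortex and were killed at 4, 7, 14, 28 or 42 days post injury (dpi), while the control animals had a sham operation. The tissue was trimmed by hand with blades under a microscope, so each library holds neurons, glia and vessels. Values were used from 29 of 30 animals, with 5 animals in the sham, 7, 14, 28 and 42 dpi groups and 4 at 4 dpi, where animal A9-3 was not analysed here. In such bulk tissue, fewer cells of a type and less RNA per cell cannot be told apart.

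All 20 pan-neuronal genes were measured, with a summed normalized CPM (read counts scaled to library size) of 7768.9 to 11799.4 across animals, and the 8 oligodendrocyte genes summed to 4568.8 to 9453.8. Only 2 of 6 forebrain genes had a row, and their sum was 2.1 to 6.6. The 18S ribosomal transcript Rn18s-rs5 ranged from 30320.8 to 52929.1 in the sham group and from 44755.2 to 779159.7 at 28 dpi, so the libraries differed widely in leftover ribosomal RNA. The sequencing depth of each library was not known from the table.

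The members spanned a wide range of expression, and their levels were compared per kilobase of the longest coding transcript. In the sham group Slc12a5 was highest, at 64.2 ± 2.0 normalized CPM per kb (SD, n = 5), and next came Slc6a5 at 47.7 ± 4.7 and Slc17a6 at 44.8 ± 3.2. By this length the ranges of Slc6a5 (41.1 to 53.5) and Slc17a6 (41.5 to 48.3) overlapped. Slc32a1 lay at 31.2 ± 3.0 per kb, above Gad1 at 18.1 ± 3.5 and Gad2 at 10.2 ± 1.4. Slc17a8 was near the bottom of the table at 0.19 ± 0.04 per kb. When all exon bases of a gene were counted in place of 1 transcript, Gad1 fell to 7.96 per kb and below Gad2 at 9.94. By that count the means were 46.8 for Slc6a5, 34.3 for Slc17a6 and 31.2 for Slc32a1, and overlap between animals was not examined. Hence glycine transporter and KCC2 transcripts were abundant relative to the GABA-synthesizing enzymes in this region.

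**Figure D1:**
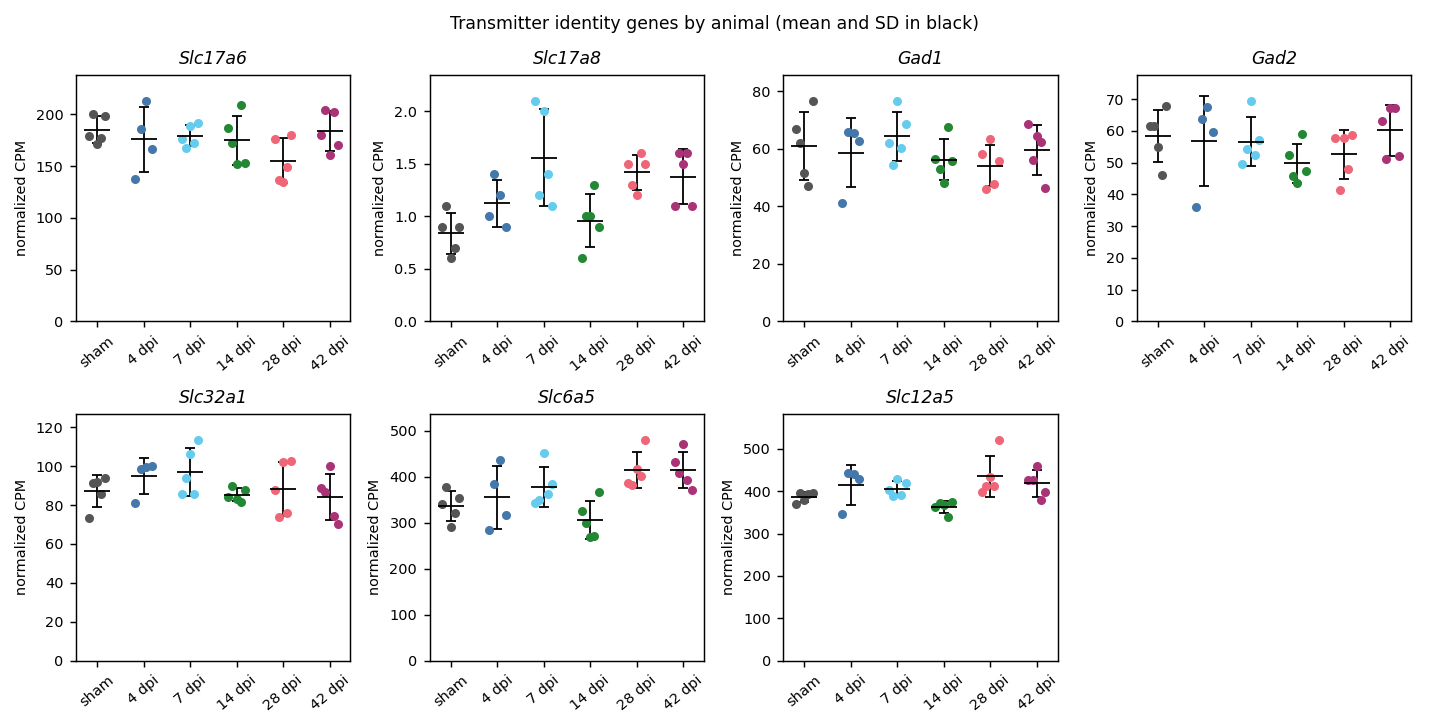
Normalized CPM of each member (vertical axis, starting at 0) in each animal (points) by group (horizontal axis), with the group mean and SD in black. Slc17a8, Slc6a5 and Slc12a5 at 28 dpi lie above every sham animal, whereas Gad1, Gad2 and Slc32a1 overlap the sham animals at each time point.

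Among the glutamate transporters, Slc17a6 encodes VGLUT2, the main vesicular carrier of spinal excitatory interneurons (chr7:51622006-51671119, mm10, plus strand). Sham animals had 171.6, 176.7, 179.3, 198.5 and 200.0 normalized CPM, and the 28 dpi animals had 134.8, 136.4, 149.1, 176.6 and 179.7. Thus 3 of 5 animals at 28 dpi were below all sham animals and the other two lay inside the sham range. The mean at 28 dpi was 155 ± 21.6 against 185 ± 13.1 (SD, n = 5 each), a log2 difference of -0.26 (SE 0.10, 95% interval -0.47 to -0.06). This missed the threshold (limma, adjusted p = 0.0555 over all genes), and the order of group means ran from sham through 42, 7, 4 and 14 dpi to 28 dpi with neighbouring groups overlapping.

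The call for Slc17a6 depended on the setting, passing in 6 of 15 other settings and in 5 of 29 fits without 1 animal. With equal sums that include ribosomal RNA the difference was -1.05 (limma adjusted p = 0.00105), where the median of all genes was -0.73. With a correction for transcript length and GC content the difference at 28 dpi was -0.29 (limma adjusted p = 0.0269), and with the motor neuron marker mean as a covariate it was -0.22 (adjusted p = 0.0264). Both passed the threshold, as did a fit that took the unit in the sample labels as a block (adjusted p = 0.0388). In these fits 25.3%, 27.4% and 28.8% of all genes had a limma adjusted p below 0.05. Without the 3 animals richest in Rn18s-rs5 the difference was -0.22 and did not pass (adjusted p = 0.156). At 42 dpi, Slc17a6 stood at 160.6, 170.3, 180.0, 202.2 and 204.4, around the sham values, and the log2 difference from sham was -0.02 (adjusted p = 0.961). The step from 28 to 42 dpi, 0.24 on the log2 scale, did not pass (adjusted p = 0.158).

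Slc17a8 encodes VGLUT3, a carrier found in sparse neuronal populations (chr10:89574020-89621253, mm10, minus strand). Its values were low, and the table rounds to steps of 0.1. The sham animals had 0.6, 0.7, 0.9, 0.9 and 1.1, the 7 dpi animals 1.1, 1.2, 1.4, 2.0 and 2.1, and the 28 dpi animals 1.2, 1.3, 1.5, 1.5 and 1.6. All 5 animals at 28 dpi were above the sham range, as were 4 of 5 at 7 dpi, and at 14 dpi (0.6, 0.9, 1.0, 1.0 and 1.3) 1 of 5 was. The step from 7 to 14 dpi did not pass (-0.49, limma adjusted p = 0.709). Slc17a8 rose at 28 dpi by 0.53 on the log2 scale (SE 0.16, 95% interval 0.20 to 0.85, limma adjusted p = 0.0184, exact permutation p = 0.00794). This call ended under quantile normalization (adjusted p = 0.121), with Rn18s-rs5 (0.0952) or the pan-neuronal mean (0.0566) as a covariate and without sham animal A12-1 (0.0657). With the Rn18s-rs5 covariate the 28 dpi difference was 0.60, and 0 of 16995 genes passed. With every animal scaled to the same sum, ribosomal RNA included, the difference was 0.0024 (adjusted p = 0.994). The larger difference at 7 dpi, 0.60, did not pass (adjusted p = 0.612), in a contrast where 0.0294% of all genes did. Its 42 dpi difference of 0.49 also missed the threshold (adjusted p = 0.151). From 14 to 28 dpi it rose by 0.41 (95% interval 0.08 to 0.74, limma adjusted p = 0.0398), although the groups overlapped and the call was lost without any one of 7 animals (adjusted p up to 0.13). Of 15 other settings 8 kept it, with differences down to 0.19 and an adjusted p up to 0.69.

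For inhibitory neurons, the enzymes and the shared vesicular carrier gave no detectable change. Gad1 (chr2:70553072-70602014, mm10) averaged 60.8 ± 11.8 in sham animals and between 54.2 ± 7.2 (28 dpi) and 64.3 ± 8.6 (7 dpi) after stroke. Gad2 (chr2:22622205-22693874) averaged 58.4 ± 8.3 in sham animals and between 49.7 ± 6.1 (14 dpi) and 60.2 ± 8.0 (42 dpi). The groups overlapped throughout. At 28 dpi the 95% interval against sham was -0.43 to 0.12 on the log2 scale for Gad1 and -0.42 to 0.13 for Gad2, and at 14 dpi it was -0.50 to 0.05 for Gad2, so differences of that size were within the error of these animals.

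Slc32a1 (chr2:158610767-158615748, mm10, plus strand) carries both GABA and glycine into vesicles. Its mean was 87.2 ± 8.3 in the sham group, 97.1 ± 12.3 at 7 dpi and 88.4 ± 13.9 at 28 dpi, and the log2 difference at 28 dpi was 0.01 with a 95% interval of -0.19 to 0.21 (limma adjusted p = 0.947). At 14 dpi the 5 animals lay within 81.8 to 89.8. Of its 2797 exon bases, 697 are shared with a transcript on the opposite strand, Gm14205, and the strand setting of the counting was not given in the sources used here, so reads of the pair may not be separated.

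Slc6a5 encodes GlyT2, which refills glycinergic terminals and is the standard marker of glycinergic neurons (chr7:49910146-49963856, mm10, plus strand). The sham animals had 290.4, 321.5, 340.6, 353.5 and 377.8 normalized CPM and the 14 dpi animals 268.6, 271.9, 298.3, 324.6 and 366.8. The 28 dpi animals had 382.3, 387.0, 401.7, 417.6 and 479.2, and the 42 dpi animals 370.8, 392.2, 407.9, 432.4 and 471.5. At 28 dpi each animal was above each sham and each 14 dpi animal, and at 42 dpi 4 of 5 were above the sham range.

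Slc6a5 thus rose 1.23-fold at 28 dpi over sham (log2 difference 0.30, SE 0.10, 95% interval 0.09 to 0.51, limma adjusted p = 0.0339, exact permutation p = 0.00794). It rose 1.36-fold between 14 and 28 dpi (0.44, 95% interval 0.23 to 0.65, adjusted p = 0.00113), a call that ended with the length and GC correction described below. The step from 14 to 28 dpi dropped to 0.17 when every animal was scaled to the same sum, ribosomal RNA included (adjusted p = 0.715). The 42 dpi difference was equally large, 0.30, but missed the threshold (adjusted p = 0.161), and 0.0235% of all genes passed it there. The call against sham also ended with the length and GC correction (0.15, adjusted p = 0.19), under quantile normalization (0.26, adjusted p = 0.06) and with the pan-neuronal mean as a covariate (0.27, adjusted p = 0.0761). It ended too with equal sums from which ribosomal and mitochondrial RNA were left out. With Rn18s-rs5 as a covariate the difference stayed at 0.30 but did not pass (adjusted p = 0.175), and with equal sums that include ribosomal RNA the difference turned to -0.49. Leaving out a single animal moved the 28 dpi adjusted p between 0.0236 and 0.114. It was past 0.05 without sham animals A12-1 or A12-2 and without 28 dpi animals A4-3 or A4-4.

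Slc12a5 encodes KCC2, the chloride exporter of mature neurons (chr2:164960802-164999731, mm10, plus strand). The sham animals had 369.5, 379.1, 392.7, 396.2 and 396.9 and the 14 dpi animals 339.3, 363.2, 368.2, 371.1 and 375.7. The 28 dpi animals had 397.8, 411.3, 411.9, 433.0 and 520.3. Every 28 dpi animal was above every sham and every 14 dpi animal, although the lowest exceeded the highest sham animal by less than 1 unit. At 7 dpi all 5 animals (387.7 to 428.0) were above the 14 dpi animals, a separation of that direction seen in 0.836% of all genes.

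Slc12a5 rose 1.19-fold from 14 to 28 dpi (log2 difference 0.25, SE 0.07, 95% interval 0.11 to 0.40, limma adjusted p = 0.0047, exact permutation p = 0.00794). The call ended with the length and GC correction (0.06, adjusted p = 0.359) and with the pan-neuronal covariate (0.0569), and with equal sums the difference was -0.012. Against sham, the 28 dpi difference of 0.16 (95% interval 0.02 to 0.30) did not pass (adjusted p = 0.0854). It was 0.10 without animal A4-4, the highest (adjusted p = 0.299), and passed without animal A3-1 (0.19, adjusted p = 0.047). The ranges of 7 and 14 dpi were separate, but the log2 difference of -0.16 did not pass over all genes (adjusted p = 0.791).

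Counted over the 7 measured members, 2 were past an adjusted p of 0.05 at 28 dpi against sham (Slc17a8 and Slc6a5, both higher), where 11.9% of all genes were higher and 13% lower by the same limit, 24.9% together. From 14 to 28 dpi, 3 members passed (Slc17a8, Slc6a5 and Slc12a5, all higher), with 21% of all genes higher and 21.9% lower. Ranges at 28 dpi lay wholly above sham for 3 members (6.15% of all genes) and wholly above 14 dpi for 2 members (10.2% of all genes). None of the 7 was a significantly differentially expressed gene (SDEG: adjusted p below 0.05 and a fold change above 1.5) in any of the 9 comparisons, and SDEGs made up 4.64% of the table at 28 dpi against sham, 11.8% from 14 to 28 dpi and 0.224% from 28 to 42 dpi. The share was 0% from 4 to 7 dpi and from 7 to 14 dpi. Against sham, SDEGs were 0.0941% of genes for 4 dpi, 0.0294% for 7 dpi, 0.00588% for 14 dpi and 0.0235% for 42 dpi. In those 4 comparisons no member had a limma adjusted p below 0.05, which 0.106%, 0.0294%, 0.00588% and 0.0235% of all genes had. Unadjusted p values were below 0.05 for 0, 1, 0 and 2 members, against 5.14%, 5.84%, 11.6% and 14.8% of all genes. Over the whole course, the moderated F-test gave an adjusted p of 0.00562 for Slc6a5, 0.0158 for Slc17a8 and 0.0552 for Slc12a5, in a table where 31.6% of genes passed.

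**Figure D2:**
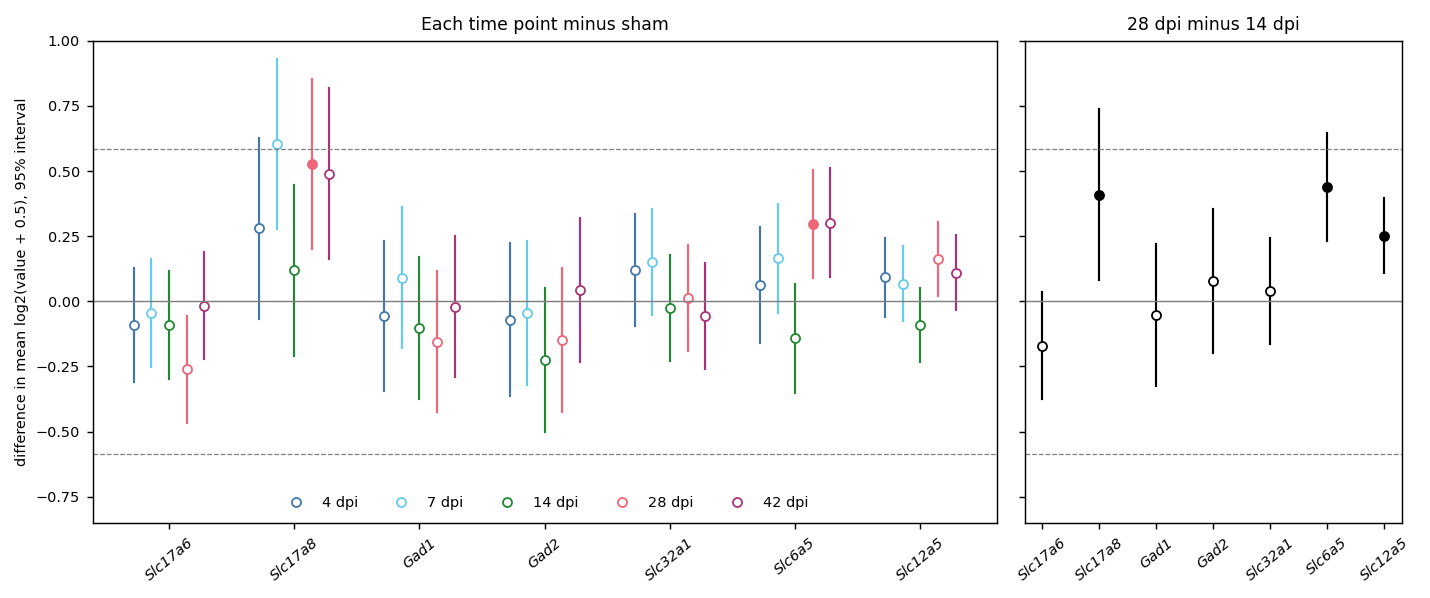
Difference in mean log2(value + 0.5) of each member against sham at the 5 time points (left) and between 28 and 14 dpi (right), with 95% intervals. Filled points have a limma adjusted p below 0.05, and dashed lines mark a 1.5-fold change. Slc17a8 and Slc6a5 are filled at 28 dpi against sham, and Slc17a8, Slc6a5 and Slc12a5 from 14 to 28 dpi.

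The step from 14 to 28 dpi went with transcript length. Genes with a known length and a mean value of at least 1 were put in 10 bins of nearly equal number by length. The median log2 difference was -0.34 in the bin with the shortest transcripts (up to 1321 bases) and 0.28 in the bin with the longest (6834 bases or more). The longest transcript of Slc6a5 has 7065 bases and that of Slc12a5 6028, against 5744 for Gad2, 4456 for Slc17a8, 4137 for Slc17a6, 3601 for Gad1 and 2797 for Slc32a1. Gad2 lay in the same bin as Slc12a5, and its difference of 0.08 did not pass (limma adjusted p = 0.667). After a correction of each animal for length and GC content, the 14 to 28 dpi difference was 0.20 for Slc6a5 (limma adjusted p = 0.0602) and 0.06 for Slc12a5 (adjusted p = 0.359). The correction reduced the 28 dpi difference from sham to 0.15 for Slc6a5 (adjusted p = 0.19), so none of these calls held. Slc17a8 kept 0.49 at 28 dpi against sham (adjusted p = 0.023) but 0.33 from 14 to 28 dpi missed the threshold (adjusted p = 0.0933). What made the difference go with length was not tested.

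**Figure D3:**
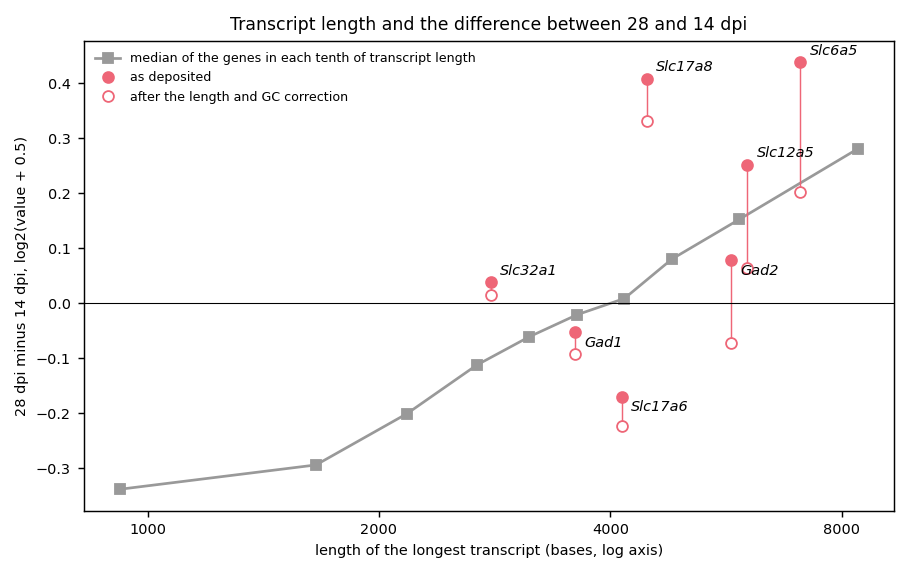
Log2 difference between 28 and 14 dpi (vertical axis) against the length of the longest transcript (horizontal log axis). Grey squares are medians of genes in each of 10 length bins, running from -0.34 to 0.28, and red points are the members before (filled) and after (open) the correction. Slc6a5 moves from 0.44 to 0.20 and Slc12a5 from 0.25 to 0.06.

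Sequence just ahead of the transcript starts is shown for the 3 members called from 14 to 28 dpi before the length and GC correction, none of which passed after it. The stretches are from the RefSeq promoter table (GRCm38.p6) and stop before the first annotated start in RefSeq and GENCODE. They are written 5′ to 3′ on the gene's strand, with E-box letters (CANNTG, which reads the same on both strands) in capitals.
Slc6a5, chr7:49910049-49910145, plus strand: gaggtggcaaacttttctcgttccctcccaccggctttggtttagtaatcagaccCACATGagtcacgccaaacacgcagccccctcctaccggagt
Slc12a5, chr2:164960596-164960801, plus strand: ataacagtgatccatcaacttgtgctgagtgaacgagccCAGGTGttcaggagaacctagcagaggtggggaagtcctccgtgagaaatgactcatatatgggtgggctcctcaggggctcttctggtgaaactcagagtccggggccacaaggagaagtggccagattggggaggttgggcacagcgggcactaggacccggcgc
Slc17a8, chr10:89621254-89621499, minus strand: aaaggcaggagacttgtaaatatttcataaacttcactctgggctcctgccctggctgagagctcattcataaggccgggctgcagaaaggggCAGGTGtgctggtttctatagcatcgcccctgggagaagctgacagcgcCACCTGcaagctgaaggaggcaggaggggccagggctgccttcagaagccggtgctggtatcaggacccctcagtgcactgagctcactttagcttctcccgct
The stretch of Slc17a8 holds 2 such matches and the other stretches 1 each. Across all 32851 promoter windows of 300 bases, 72.3% hold at least 1. A match is a run of letters and not a bound site.

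Ratios within an animal, taken after 0.5 was added to each value, gave the balance of inhibitory to excitatory transcripts. The pair Slc6a5 to Slc17a6, added after the values had been seen, had a log2 ratio of 0.76 to 0.92 in the sham animals. At 28 dpi it was 1.13 to 1.63, with a mean of 1.42 ± 0.18 (SD, n = 5) against 0.86 ± 0.07. All 5 animals were above the sham range at 7, 28 and 42 dpi and all 4 at 4 dpi, although the 4 dpi minimum only just cleared the highest sham animal. At 14 dpi the ratio was spread from 0.38 to 1.26, with 1 animal above and 1 below the sham range. Of all genes, 13% had a ratio to Slc17a6 wholly above sham at 28 dpi, while at 4, 7 and 42 dpi the shares were 1.04%, 0.718% and 0.942%. After the length and GC correction the mean difference from sham at 28 dpi was 0.44 in place of 0.56, and all 5 animals were still above the sham range. The share of all genes above the sham range was not computed for corrected ratios.

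The shared carrier was set against Slc17a6 in the same way. Slc32a1 to Slc17a6 averaged -1.09 ± 0.14 in sham animals and -0.81 ± 0.24 at 28 dpi, where 3 of 5 animals were above the sham range. Its mean difference from sham was 0.21 for 4 dpi, 0.20 for 7 dpi and 0.27 for 28 dpi, against 0.15, 0.21 and 0.56 for Slc6a5 to Slc17a6. At 14 dpi it was 0.06 against -0.05, and at 42 dpi -0.04, with 1 animal above and 1 below the sham range, against 0.32. With the length and GC correction the Slc32a1 to Slc17a6 difference was 0.30 at 28 dpi, where 5 of 5 animals exceeded all sham animals. It turned to 0.10 at 42 dpi, with 2 above and 1 below the sham range. Before this correction 13% of all genes had a ratio to Slc17a6 wholly above sham at 28 dpi, and the share after it was not computed. Slc6a5 to Slc32a1 went from 1.94 ± 0.20 in sham animals to 2.23 ± 0.16 by 28 dpi and 2.30 ± 0.08 by 42 dpi. All 5 animals of the last group were above the sham range, which 1.37% of genes relative to Slc32a1 also were. The length and GC correction brought the mean difference from sham down from 0.29 to 0.14 at 28 dpi and from 0.36 to 0.19 at 42 dpi. Slc17a8 to Slc17a6 was above the sham range in 5 of 5 animals at 7, 28 and 42 dpi, with a mean difference from sham of 0.79 at 28 dpi. At the low values of Slc17a8 the added 0.5 lowers this difference, which was 1.04 with nothing added, again with 5 of 5 animals above the sham range. No test was run on ratios.

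Gad1 to Gad2 stayed near equal CPM, with log2 ratios between -0.16 and 0.31 over all 29 animals. The 7 and 14 dpi groups each had 3 of 5 animals beyond the highest sham value (mean differences 0.14 and 0.12), and 2 of 5 were under the lowest by 42 dpi. KCC2 relative to the chloride importer NKCC1, Slc12a5 to Slc12a2, was 0.99 ± 0.25 in sham animals and 1.24 ± 0.16 at 28 dpi, with 2 of 5 animals above the sham range, so the groups overlapped. The mean was highest at 4 dpi, 1.36 ± 0.26, where 3 of 4 animals exceeded the sham range.

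**Figure D4:**
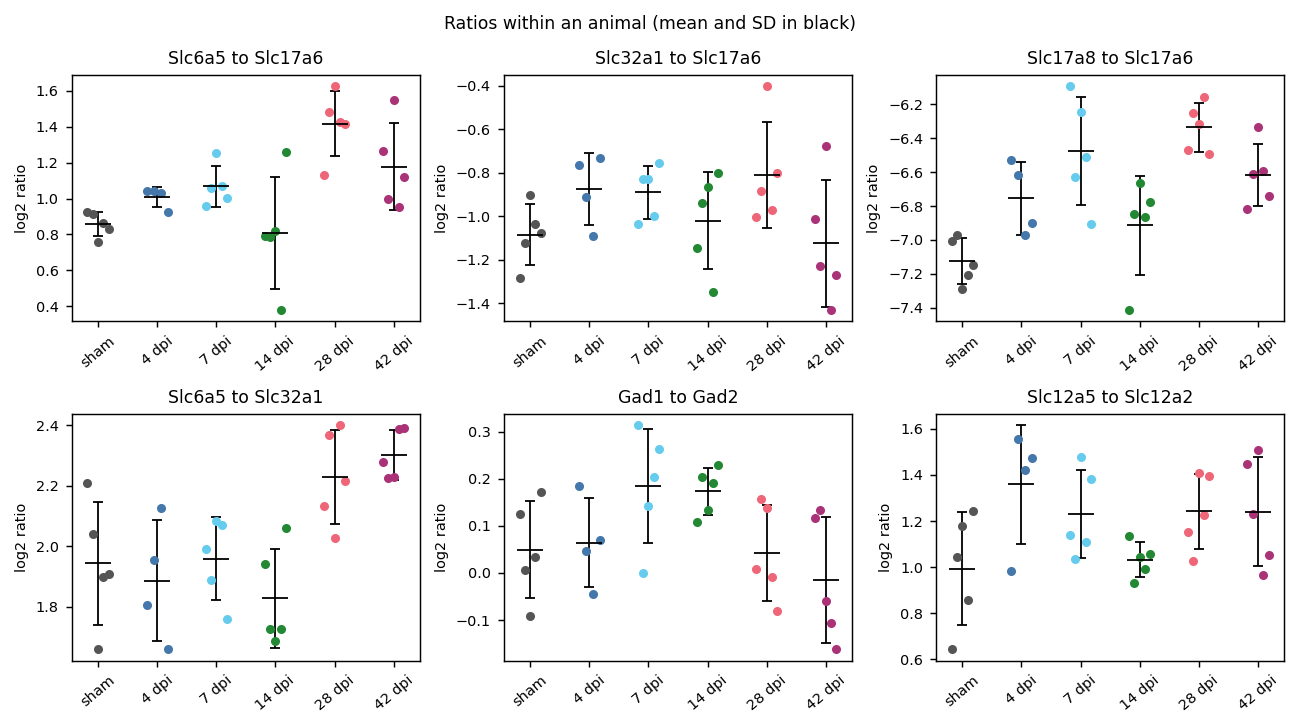
Log2 ratio of the members of each pair in each animal (vertical axis, points) by group (horizontal axis), with mean and SD in black. The ratio of Slc6a5 to Slc17a6 at 28 dpi (1.13 to 1.63) lies above the sham animals (0.76 to 0.92), and Gad1 to Gad2 stays between -0.16 and 0.31.

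Members also varied together between animals of the same group. After the group means were subtracted, 20 of 21 pairs had a positive Pearson's r over 29 animals, with a median of 0.48, and 10 pairs had an adjusted permutation p below 0.05 (Benjamini-Hochberg over 21 pairs, 100000 permutations within groups). Gad1 and Gad2 were closest, with r = 0.90 (rho = 0.87, permutation p = 1e-05, the smallest that could be reached, adjusted p = 0.000105). Without the 2 animals farthest from the median of Gad1, r was 0.87. Slc12a5 went with Slc32a1 (r = 0.74, rho = 0.79, adjusted permutation p = 0.00049, 0.75 without the farthest animals) and with Slc6a5 (r = 0.72, rho = 0.72, adjusted permutation p = 0.000105, 0.74 without them). Slc17a6 had its highest r with Gad2 (0.64, rho = 0.54, adjusted permutation p = 0.00969), which was 0.49 without its 2 farthest animals. Shared library composition enters every such r. Ranked by r among 15494 genes with a mean value of at least 1, Gad1 and Gad2 had rank 1 for each other. Slc12a5 ranked 23 for Slc32a1 and 236 for Slc6a5, so other genes were closer. Gad2 ranked 146 for Slc17a6, and Slc32a1 ranked 742 for Slc6a5. The share of all gene pairs with such an r was not computed.

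Motor neuron transcripts were set against the members in the same way. The mean of the 8 motor and cholinergic neuron genes, a comparison chosen after the values had been seen, had a negative r with 7 of 7 members, from -0.38 (Slc17a8) to -0.86 (Gad1). In 5 of these the permutation p adjusted over the 28 such relations was below 0.05, and for Gad1 it was 0.00028 (rho = -0.81, r = -0.80 without the 2 farthest animals). By rank correlation Slc32a1, which passed by r, did not pass (rho = -0.47, adjusted permutation p = 0.0612). The share of all genes with such an r was not computed. The oligodendrocyte mean was negative in 7 of 7 as well, with an adjusted permutation p below 0.05 for Slc6a5 (r = -0.67, rho = -0.69, -0.62 without the farthest animals). For Slc12a5 the rank correlation passed (rho = -0.55, adjusted permutation p = 0.0162), while its r did not (-0.52, adjusted permutation p = 0.0872). The pan-neuronal mean and Rn18s-rs5 had none below 0.05. A single animal at 4 dpi, A10-1, stood out: its motor neuron genes summed to 413.7 against 47.7, 93.6 and 130.2 in the other 4 dpi animals, and it had the lowest 4 dpi value of 6 members, Slc17a8 being the exception. Motor neuron genes summed to 91.0 to 343.4 in the sham group and 151.3 to 314.2 at 28 dpi, so those ranges overlapped. Oligodendrocyte genes summed to 6368.7 to 9453.8 in the sham group and 4568.8 to 6718.4 at 28 dpi, when 5 of 8 fell. Of 20 pan-neuronal genes 4 fell and 2 rose in that comparison (median -0.14), where 13% of all genes were lower and 11.9% higher. From 14 to 28 dpi 7 of 8 oligodendrocyte genes, 10 of 20 pan-neuronal genes and 3 of 9 microglial genes fell, while 3 pan-neuronal genes rose, against 21.9% of all genes lower and 21% higher. In the same step 2 of 8 astrocyte genes rose, and of 6 endothelial genes 2 rose and 1 fell. At 28 dpi against sham 2 astrocyte genes rose and 2 fell, with the same endothelial counts. The part of these marker shifts in the members' differences was not tested. With the motor and cholinergic neuron mean as a covariate the 28 dpi difference from sham was 0.33 for Slc6a5 (limma adjusted p = 0.00564), 0.56 for Slc17a8 (adjusted p = 0.0111) and 0.18 for Slc12a5 (adjusted p = 0.036, now past the threshold). Slc17a6 passed as lower with this covariate. Of all genes, 27.4% had an adjusted p below 0.05 in that fit.

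**Figure D5:**
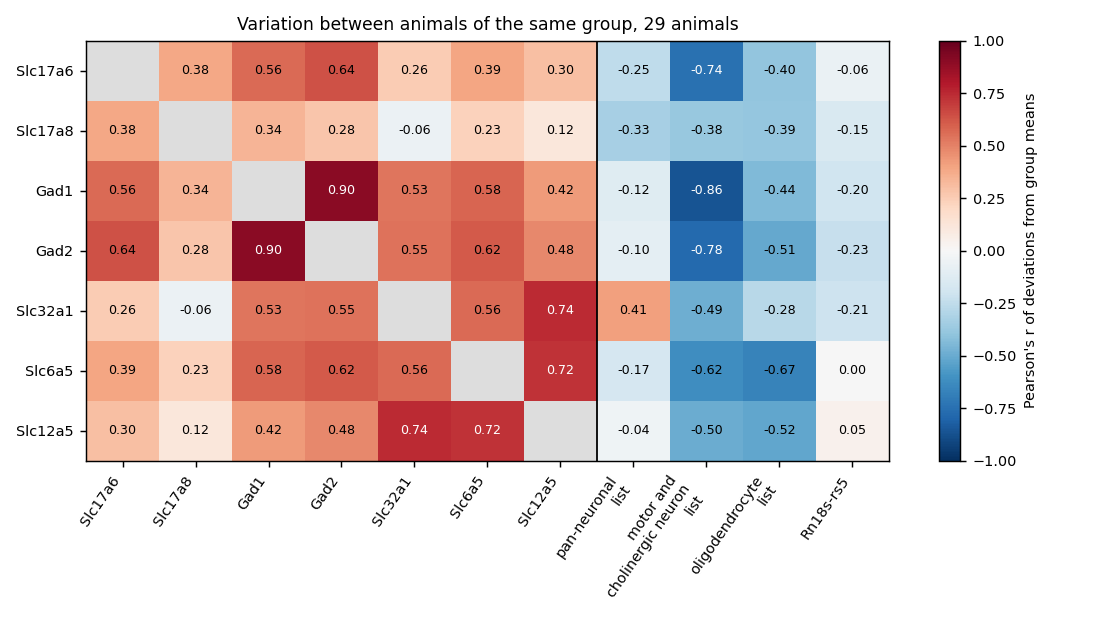
Pearson's r over 29 animals between members, and of each member with the mean of 3 marker lists and with Rn18s-rs5, after the group means were subtracted (colour scale from -1 to 1, value printed in each cell). Gad1 and Gad2 reach 0.90, and the motor and cholinergic neuron column is negative for all 7 members.

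For each member, the genes with the most similar variation between animals of the same group were looked up, as a description. The search covered 15494 genes with a mean value of at least 1, after the group means were subtracted. Gad1 and Gad2 were each other's nearest gene, and Camk2a, a calcium-dependent kinase subunit, was among the nearest 3 of both (r = 0.87 and 0.88). The nearest to Slc6a5 were Nrxn3 (r = 0.96), a presynaptic adhesion molecule, Tenm2 (0.93), a teneurin, and Slc38a1 (0.92), a neuronal glutamine transporter. Slc12a5 was nearest to Apba1 (0.90), Epb41l1 (0.88) and Plxna1 (0.88), and Slc32a1 to Ina (0.86), the internexin neurofilament gene, Ttyh3 (0.83) and Rims4 (0.83). Slc17a6 was nearest to Plcxd2 (0.88), Nkrf (0.87) and Rgs17 (0.87), and the remaining gene near Gad1 was Nptxr (0.84) and near Gad2 Syt1 (0.89). Slc17a8, the weakest signal, reached only 0.67 with Cmtm4, 0.66 with Tspyl3 and 0.66 with Mtmr1.

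Genes that supply, clear or regulate these transmitters were given from 4 lists, to be read against the 11.9% of all genes that were higher and 13% that were lower at 28 dpi against sham. Of 14 glutamate handling genes, 1 rose at 28 dpi against sham, the glial transporter Slc1a2 (0.29, limma adjusted p = 0.0204). The list had 3 that fell, namely glutamine synthetase Glul (-0.24, adjusted p = 0.029), glutamate dehydrogenase Glud1 (-0.16, adjusted p = 0.0274) and the aminotransferase Got1 (-0.23, adjusted p = 0.0167), and the list median was -0.12. Of 14 GABA and glycine handling genes 1 fell, Gcsh of the glycine cleavage system (-0.30, adjusted p = 0.0412), with a median of -0.10. The median of all genes was -0.00 in this comparison. With the length and GC correction Slc1a2 was at 0.06 (adjusted p = 0.57) and Gcsh at -0.20 (adjusted p = 0.055), so both calls ended, while Glul, Glud1 and Got1 kept theirs. Under it Slc38a2 (-0.22, adjusted p = 0.0143) of the glutamate list and Abat (-0.22, adjusted p = 0.00657) and Aldh5a1 (-0.21, adjusted p = 0.00197) of the GABA list were called lower.

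Regulators of chloride transport moved in both directions at 28 dpi, where 24.9% of all genes passed. Among 14 genes, the kinases Wnk1 (0.53, limma adjusted p = 0.00201) and Wnk2 (0.67, adjusted p = 0.00232), which act on the chloride cotransporters, and the BDNF receptor Ntrk2 (0.16, adjusted p = 0.0385) rose. The chloride-proton exchanger Clcn3 (-0.15, adjusted p = 0.0329) and Bdnf (-0.51, adjusted p = 0.0254) fell, and Wnk2 was the list's only SDEG. With Rn18s-rs5 as a covariate Wnk2 was at 0.69 (limma adjusted p = 0.0567), and 0 of 16995 genes had an adjusted p below 0.05 at 28 dpi against sham, with 22.1% below 0.05 unadjusted, so no list gene kept its call there. With the length and GC correction Wnk2 was at 0.51, under the 1.5-fold limit, Wnk1 at 0.28 and Clcn3 at -0.31, the call of Ntrk2 ended (-0.03, adjusted p = 0.60) and Oxsr1 was called lower (-0.22, adjusted p = 0.0321). Slc12a2, the chloride importer, had a mean of 183 ± 16.2 at 28 dpi against 196 ± 30.6 in sham animals. Among the 4 measured genes of other transmitters, Nos1, the neuronal nitric oxide synthase, rose (0.39, adjusted p = 0.0392), a call that ended with that correction (0.17, adjusted p = 0.273). In the other comparisons with sham, 0 genes of these 4 lists had an adjusted p below 0.05 with limma, and 8 (4 dpi), 3 (7 dpi), 9 (14 dpi) and 10 (42 dpi) had unadjusted p values below 0.05, against 5.14%, 5.84%, 11.6% and 14.8% of all genes.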

How the data were processed

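Total RNA depleted of ribosomal RNA was sequenced from 29 animals analysed here. Per the sources, the authors quantified single-end reads with Salmon against mm10, summarised them with Tximport, removed low genes and normalized with edgeR 3.14.0 in R 3.4.1. The deposited values are normalized CPM rounded to 0.1, treated as a score, because column sums run from 714597 to 2256910. Whole reads were not recovered, so library depth is unknown and no counting interval is given. The strand setting was not given in the sources used here. Columns of the authors' own comparisons (fold changes, p-values and calls for each time point against control) were not used. The control label was read as sham from the study's methods.

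Values were tested as log2(value + 0.5), so fold changes of low genes are understated, with limma 3.58.1 (R 4.3.3, trended variance), 6 group means in 1 fit and Benjamini-Hochberg adjustment over 16995 genes. An SDEG had an adjusted p below 0.05 and a fold change above 1.5. The 9 comparisons were each time point against sham and each neighbouring pair of time points, with a moderated F-test over groups. Exact two-sided permutation tests of single members (63 run) can reach 0.00794 with 5 against 5 animals and 0.0159 with 4 against 5. Replicates are separate animals. Transcript lengths matched 16919 of 16995 genes. Correlations used 100000 permutations within groups in Python 3.11.15 with scipy 1.17.1. Code was tested on simulated data. All members are named, with the 3 genes most alike each member and the genes of the fixed lists that passed. The members and lists were chosen with earlier results of these data known. Alternatives were another pseudocount, scaling, filter, fold limit, covariates, a label block and leaving out animals. The length and GC correction, the motor neuron covariate, the ratio of Slc6a5 to Slc17a6, ratios with no pseudocount and the correlations with marker lists were added after the data had been seen.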

Additional observations from a re-analysis of the deposited data

Results flagged for a closer look

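Among 42 sets of 4 or 5 animals (7 members in 6 groups), 4 held an animal set apart by a gap that chance gives in about 5% of sets. Animal A10-1 was the lowest at 4 dpi for Gad1 (41.0 normalized CPM), Slc32a1 (80.9) and Slc12a5 (345.2). Animal A4-4 was the highest at 28 dpi for Slc12a5 (520.3). The difference from sham was larger at 28 than at 14 dpi, tested directly with limma, by 0.41 on the log2 scale for Slc17a8 (adjusted p = 0.0398), 0.44 for Slc6a5 (adjusted p = 0.00113) and 0.25 for Slc12a5 (adjusted p = 0.0047). In that contrast 43% of all genes had an adjusted p below 0.05, and the length and GC correction ended each of these calls.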

How the results depend on the processing

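With every animal scaled to the same sum, ribosomal RNA included, the median of all genes moved by -0.73 at 28 dpi against sham, and the differences turned to -0.49 for Slc6a5 and -0.63 for Slc12a5 at 28 dpi, to -0.25 for Slc6a5 at 42 dpi and to -0.012 for Slc12a5 from 14 to 28 dpi. Slc17a8 was then at 0.0024 at 28 dpi against sham (adjusted p = 0.994), and Slc6a5 at 0.17 from 14 to 28 dpi (adjusted p = 0.715). Under that scaling 5 members were SDEGs at 28 dpi against sham (65.2% of all genes) and 6 passed the F-test (66.5%), in place of 0 and 2, and Slc17a6 was at -1.05 (adjusted p = 0.00105). The number at 28 dpi against sham was 1 with a pseudocount of 0.05 (5.67% of all genes), 2 with no fold limit (24.9%), 1 with a lower fold limit (15.8%) and 0 to 1 when single animals were left out (1 without sham A11-4, 4.66%). From 14 to 28 dpi it was 3 with no fold limit (43%) and 2 with the lower limit (31.1%). The ratio of Slc17a8 to Slc17a6 at 28 dpi minus sham was 1.04 with no pseudocount, a setting added after the data had been seen. At 28 dpi against sham, the limma call was lost under quantile normalization (adjusted p = 0.06 for Slc6a5, 0.121 for Slc17a8), with a pan-neuronal covariate (0.0761 and 0.0566) and with Rn18s-rs5 as a covariate (0.30 on the log2 scale, adjusted p = 0.175, and 0.60, adjusted p = 0.0952). With that covariate limma called 0 of 16995 genes at 28 dpi against sham, with 22.1% at an unadjusted p below 0.05. With ribosomal and mitochondrial RNA left out of the sum it was lost for Slc6a5 (0.19 on the log2 scale, adjusted p = 0.183). Slc17a8 lost it without sham A12-1 (0.0657), and from 14 to 28 dpi without 14 dpi A5-1, A5-3, A5-4 or A6-3 or 28 dpi A3-1, A4-3 or A4-4 (0.0525 to 0.13). The 14 to 28 dpi call of Slc12a5 was lost with the pan-neuronal covariate (0.0569). The length and GC correction, added after the data had been seen, ended the 14 to 28 dpi calls of Slc6a5 (adjusted p = 0.0602), Slc12a5 (0.359) and Slc17a8 (0.0933) and that of Slc6a5 against sham (0.19). Without it, the 14 to 28 dpi calls of Slc6a5 and Slc12a5 held without any single animal. Without the 2 farthest animals, r was 0.41 for Gad1 with Slc32a1 and 0.42 for Gad2 with Slc32a1. No paired analysis was possible because each replicate name occurs in 1 group only. The unit in the labels (3 for animals of both 28 and 42 dpi), taken as a random block, ended no call and added that of Slc17a6 at 28 dpi (-0.26, adjusted p = 0.0388). Depth is unknown, and the values of Slc17a8 lie near the rounding step. The cause of these changes was not tested.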
